A study of Homo sapiens with 7 samples.

Results

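50 genes that encode proteins of the spliceosome were followed across 4 arrays of bafilomycin A1-treated HCT116 H2B-GFP cells. The members were chosen by gene name from a fixed list: proteins of the small nuclear ribonucleoproteins (snRNPs), of the associated Prp19 complex, and of the SR family with TRA2A and TRA2B. All 50 were found among the 36337 gene names on the array, with 77 probes printed as 86 spots. By role they were 8 genes of the Sm core, 3 of the U1 snRNP, 11 of the U2 snRNP and its recruiting factor U2AF, 14 of the U4/U6.U5 tri-snRNP, 3 of the Prp19 complex and 11 SR and SR-like proteins. The members lie on 18 chromosomes, with 8 on chromosome 19 and 7 on chromosome 1.

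The 4 replicates were treated with 10 nM bafilomycin A1 for 30 h in medium with 10% serum, per the labels (the study's methods state a lower share), and 100 ng of RNA from each was labelled with Cy3 and hybridised to its own single-colour Agilent array. Bafilomycin A1 blocks the vacuolar proton pump and thereby the acidification of lysosomes. HCT116 is a near-diploid human colon carcinoma line, used here as a derivative that carries a GFP-tagged histone H2B. Untreated cells (3 samples) were not analysed here. The values therefore describe the treated cells and their spread, and no effect of the treatment can be read from them. The design text calls the 4 treated samples biological replicates. All 4 arrays lay on 1 slide.

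The spliceosome removes introns from pre-mRNA. The U1 snRNP first pairs with the 5′ splice site, U2AF and the U2 snRNP mark the 3′ splice site and the branch point, and the tri-snRNP then joins, after which the Prp19 complex takes part in activating the catalytic centre. The Sm proteins form a ring around most of the spliceosomal snRNAs, and the SR proteins bind exonic sequences and help to define splice sites. Most of these genes are expressed in nearly every dividing cell.

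A level below is the log2 background-subtracted signal of a gene, relative to the median of its array and taken as the median over the probes of the gene. Levels of different probes depend on the probe as well as on the RNA, so each gene is compared only with itself between arrays. A deviation is the value on an array minus the mean of the same gene or probe over the 4 arrays. A gene or probe is called detected when a probe was well above background on all 4 arrays. Because whole cultures were measured, fewer cells of a kind and less RNA per cell cannot be told apart.

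The probes that the results turn on are shown first, in the order of their description, as 60-base sense sequences from the scanner files with GRCh37 positions and with G and C in capitals. The SNRPN probe (chr15:25220523-25220582, plus strand, base 911 of its transcript) was not detected, and the SNRPB probe (chr20:2446401-2446460, minus strand, base 323) reports its close paralogue. A pair of PRPF31 probes (chr19:54629959-54631473, base 1307, and chr19:54634808-54634867, base 1840, plus strand) moved in opposite directions on replicate 3. The only probes of SNRNP70 (chr19:49601960-49604704, plus strand, base 830) and LSM4 (chr19:18420651-18423452, minus strand, base 276) were lowest on replicate 3. A span of the genome longer than the probe means that the probe crosses at least 1 exon junction.
SNRPN: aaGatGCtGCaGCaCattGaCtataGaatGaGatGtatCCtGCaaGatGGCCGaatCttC
SNRPB: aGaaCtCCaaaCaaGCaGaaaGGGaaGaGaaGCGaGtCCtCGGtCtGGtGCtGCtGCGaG
PRPF31, base 1307: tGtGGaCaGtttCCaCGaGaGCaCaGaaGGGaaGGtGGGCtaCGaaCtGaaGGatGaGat
PRPF31, base 1840: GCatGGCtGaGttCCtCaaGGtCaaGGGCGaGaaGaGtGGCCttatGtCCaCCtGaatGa
SNRNP70: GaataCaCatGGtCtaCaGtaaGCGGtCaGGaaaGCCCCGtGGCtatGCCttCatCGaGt
LSM4: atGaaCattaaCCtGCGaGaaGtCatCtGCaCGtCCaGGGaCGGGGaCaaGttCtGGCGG

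Nearly the whole list was expressed. 49 of the 50 genes were detected, against 54.2% of all gene names on the array. The exception was SNRPN, whose protein SmN replaces SmB mainly in brain and heart. Its single probe gave background-subtracted signals of 2.70, 1.42, -2.88 and 0.44 on replicates 1 to 4 and was well above background on none. SNRPB, which encodes SmB, gave 10793, 11601, 9899 and 9239 with its own single probe. Signals that near to the background set no level for SNRPN. Of the 77 probes, 73 were detected, 3 were well above background on no array, and 1, of SNRPD3, was so on 2 arrays.

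The levels of most members varied little between the treated replicates. The median SD over the 49 detected members was 0.17 (log2, n = 4 arrays), compared with 0.21 over the 19689 detected genes of the array. Of the members, 37 had an SD at or below that of the median gene. The highest and the lowest array lay more than 1.4-fold apart in 12 members, whereas 45.6% of all detected genes passed that limit. Just outside the limit lay TRA2B, spanning 1.38-fold, and just inside it SNRNP40, spanning 1.45-fold. With detected probes only, 11 members passed, against 40.1% of all genes. All 49 detected members had a mean level above the array median. The share over all detected genes was not taken, and the detection rule itself selects for signal. The comparisons with all detected genes were not matched for level, so they do not mark the low spread as particular to these genes.

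Replicate 3 was at an end of the range in most members. The scanner software marked 2249 of its spots with an outlier flag on the spot or its background, against 514, 725 and 527 on replicates 1, 2 and 4. Flags on the spot itself did not single out replicate 3, with 331, 275, 366 and 410 on replicates 1 to 4. Only 3 member spots on replicate 3 and 1 on replicate 2 had a background flag alone. Replicate 3 was the highest array in 30 of the 49 members, or 61.2%, and in 48.4% of all detected genes. The count depended on the scaling, with 17 members after normexp correction and quantile normalization and 19 after cyclic loess. With the spots flagged for their background left out too, it was 27 of the 47 members then detected. Under the main scaling replicate 2 was highest in 16, replicate 4 in 2 and replicate 1 in 1. No share over all detected genes was taken under the other scalings and spot rules, or for replicates 1, 2 and 4 as the highest array. Replicate 3 was also the lowest array in 10 members: SNRNP70, SF3B4, U2AF1, PRPF4, PRPF6, PRPF8, PRPF31, LSM4, SRSF6 and SRSF10. Of all detected genes, 23.1% were lowest on this array. Without replicate 3, the median SD of the members was 0.10 and 2 members spanned more than 1.4-fold. The corresponding values over all detected genes were not taken.

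**Figure D1:**
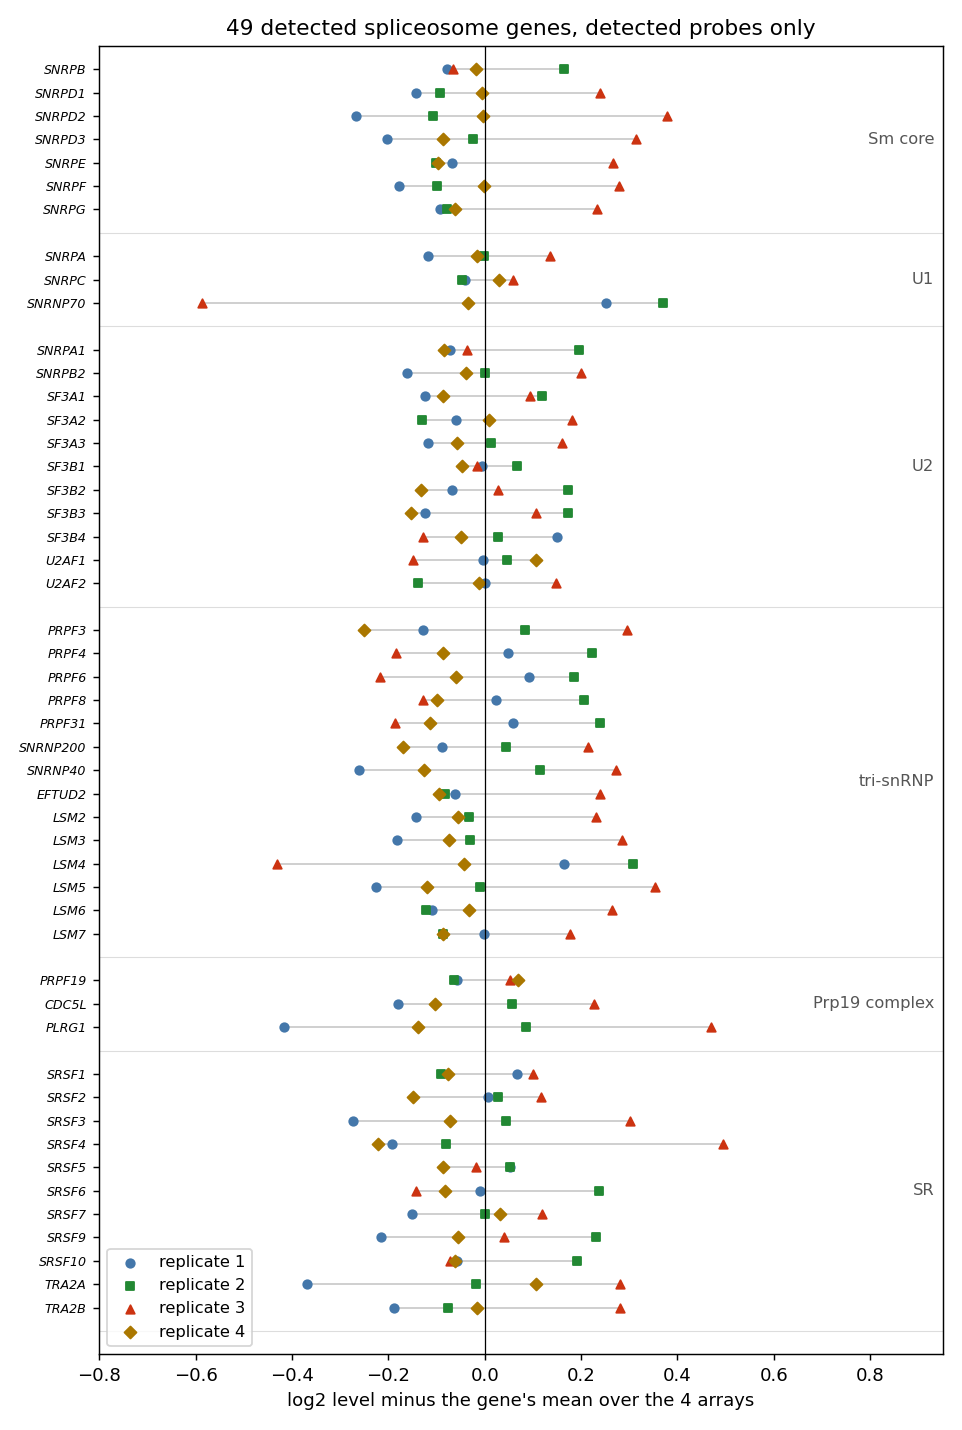
Deviation (log2) of each of the 49 detected genes on each array from its own mean over the 4 arrays, by role, using detected probes only; symbols are replicates and grey lines join the lowest to the highest. Replicate 3 lies at the right in most rows and at the left in SNRNP70 and LSM4, where its deviations were -0.59 and -0.43.

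The Sm core comprises the proteins of the heptameric ring, and 7 of its 8 genes were detected. SNRPD2 read 8.13, 8.29, 8.77 and 8.39 on replicates 1 to 4. It spanned 1.56-fold, with replicate 3 highest. SNRPD1 read 7.51, 7.56, 7.89 and 7.65. SNRPE read 6.13, 6.10, 6.46 and 6.10, and SNRPG read 8.12, 8.14, 8.45 and 8.15. In these last genes replicate 3 stood apart from 3 arrays that were close to each other: its gap to the nearest of them was larger, as a share of the whole range, than the 95% critical value of Dixon's ratio allows for 4 values. Such an array apart was found in 7 members and in 7.94% of all detected genes. The calls depended on the scaling, with 1 to 3 members under the processed signal, normexp with quantile normalization, cyclic loess or the median over all probes. By detected probes, SNRPB differed from the other detected ring genes in being highest on replicate 2, with levels of 7.13, 7.37, 7.14 and 7.19.

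SNRPF was the one member printed as 10 spots of a single probe, which gives the error within an array. Its levels were 7.36, 7.44, 7.82 and 7.54, with replicate 3 highest. The SD between its 8 or 9 usable spots was 0.08, 0.04, 0.10 and 0.07 on replicates 1 to 4, whereas the SD between arrays was 0.20. After normexp with quantile normalization and after cyclic loess, the SD between arrays was 0.10. Each level is a mean over these spots, so its error within an array is smaller than the SD between single spots.

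SNRPD3 held the second-widest spread of the list, and 1 of its 2 probes accounted for it. The gene read 2.06, 2.27, 1.76 and -0.91, an SD of 1.49. The probe at base 789 of its transcript gave signals of 2726, 2799, 3542 and 2423. The other probe, designed on another transcript, gave 38.2, 40.9, 16.0 and 0.47, so that the median of both fell on replicate 4. With the detected probe alone, the SD was 0.22 and replicate 3 was highest, as in 5 of the other 6 detected genes of the ring.

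In the U1 snRNP, the gene of the A protein was steady, that of the 70 kDa protein was not, and the probes of the C protein gene disagreed. SNRPC, whose protein stabilises the pairing of U1 with the 5′ splice site, read 3.73, 3.73, 3.83 and 3.80, with an SD of 0.05. SNRPA, which encodes the A protein bound to a stem-loop of the U1 snRNA, read 5.73, 5.84, 5.98 and 5.83. SNRNP70, the U1-70K protein that SR proteins contact, read 4.55, 4.67, 3.71 and 4.26. It was lowest on replicate 3 and next lowest on replicate 4, and it spanned 1.94-fold, the widest span of any member by detected probes. The small SD of SNRPC hid its probes. The one at base 523 gave weak signals of 70.4, 57.6, 50.1 and 53.8 and deviated by -0.20 on replicate 3. The one at base 945 gave 14944, 14960, 19936 and 14553, deviated by 0.32 and had an SD of 0.23.

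Most of the spread of the U2 mean between arrays came from 1 probe, of SF3B2. SF3B1, the large SF3b subunit that clamps the branch-point helix, read 3.23, 3.31, 3.22 and 3.19, the smallest SD of all members (0.05). SF3A1 read 4.95, 5.19, 5.17 and 4.98, and SF3A3 read 5.77, 5.90, 6.04 and 5.83. SNRPA1, which encodes the A-prime protein of U2, read 4.78, 5.04, 4.81 and 4.76, with replicate 2 apart. U2AF2, the subunit that binds the polypyrimidine tract, read 7.59, 7.45, 7.74 and 7.58. U2AF1, the subunit that reads the 3′ splice-site AG, read 7.95, 8.00, 7.80 and 8.06, and here replicate 3 was lowest.

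SF3B2 showed the widest spread of the list and this came from 1 of its probes. The gene read 2.17, 2.10, 6.95 and 1.86, a span of 34.2-fold. Its probe at base 121 gave signals of 13.6, 9.36, -0.57 and 7.52 and was well above background on no array. A signal at or below 0 has no log2 value, so on replicate 3 the gene's level came from the other probe alone, at base 2364, which gave 8958, 9615, 8702 and 7032. By that probe the SD was 0.13 and the span 1.24-fold. SF3B2 was the 1 member with a different number of usable probes on different arrays, which held for 6.02% of all detected genes.

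**Figure D2:**
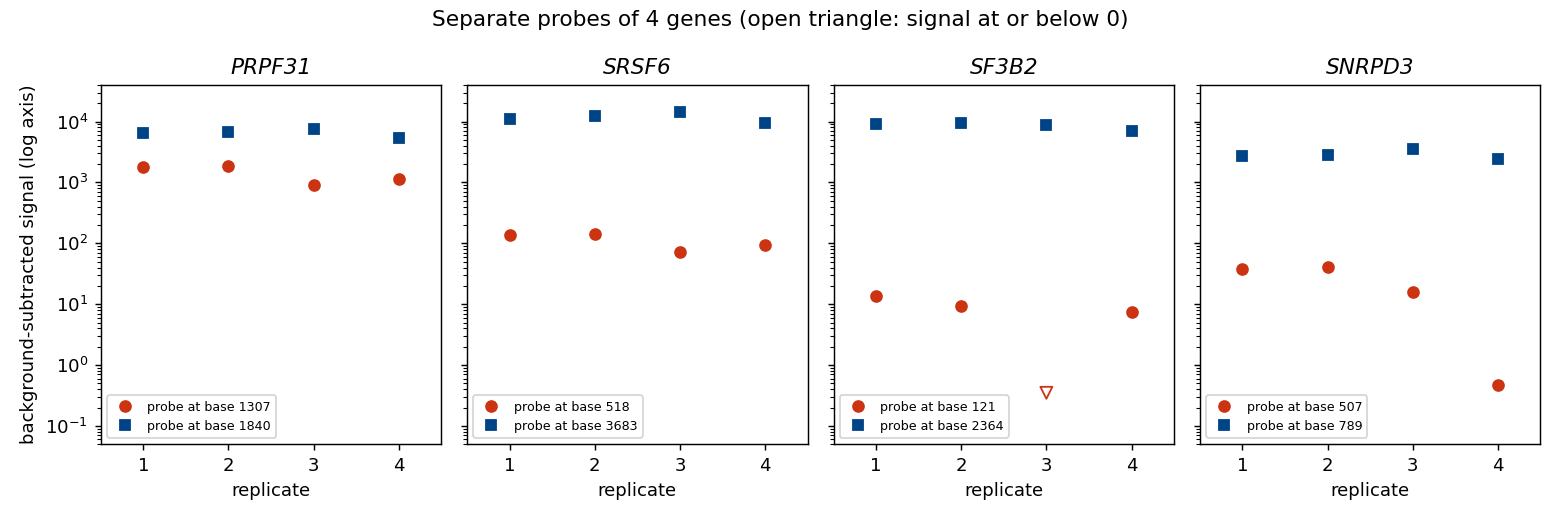
Background-subtracted signal (log axis) of each probe of PRPF31, SRSF6, SF3B2 and SNRPD3 on the 4 arrays; base numbers count along the transcript each probe was designed on, which differs between the probes of SNRPD3 and of SRSF6. In PRPF31 and SRSF6 the probe nearer the 5′ end drops on replicate 3 while the other rises, and in SF3B2 and SNRPD3 1 probe is near or below background.

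Among the tri-snRNP genes, the core proteins of U5 and the LSm ring that binds U6 did not share 1 pattern. PRPF8, the scaffold of the catalytic centre, read 6.89, 7.07, 6.74 and 6.77. PRPF6 and PRPF4 followed the same order, with replicate 2 highest and replicate 3 lowest in each. EFTUD2, the U5 GTPase, read 7.16, 7.14, 7.46 and 7.13, with replicate 3 apart. SNRNP200, the helicase that unwinds U4 from U6, read 7.20, 7.33, 7.50 and 7.11. On replicate 3 the U5 genes PRPF8 and PRPF6 were thus lowest, and EFTUD2 and SNRNP200 highest. The probes of the former have a G and C content of 55.0% and those of the latter of 41.7%. At 45.0% lie the probe of PRPF4, lowest on replicate 3, and the probes of the U5 gene SNRNP40, highest there as a gene. The part of base composition was not tested.

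The LSm genes split in the same way. LSM5 read 6.18, 6.39, 6.76 and 6.28 and spanned 1.49-fold, while LSM4 read 5.99, 6.13, 5.40 and 5.78 and spanned 1.67-fold. LSM2, LSM3, LSM6 and LSM7 were, like LSM5, highest on replicate 3, and LSM4 alone of these 6 genes was lowest there. PRPF3, a U4/U6 protein, read 2.92, 3.14, 3.35 and 2.80, and SNRNP40, a U5 protein, read 1.71, 2.08, 2.24 and 1.84. SDs within the tri-snRNP ran from 0.12 to 0.32.

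PRPF31, which bridges U4/U6 and U5, read 5.47, 5.65, 5.23 and 5.30 as a gene. Its probes, shown above, disagreed. The probe at base 1307, across a junction, gave signals of 1800, 1844, 915 and 1139, and the probe at base 1840 gave 6518, 6739, 7551 and 5471. Replicate 3 was the lowest array by the first and the highest by the second, with deviations of -0.58 and 0.21. Both sequences are rich in G and C, at 51.7% and 53.3%.

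In the Prp19 complex, PRPF19, its ubiquitin ligase, read 8.61, 8.61, 8.72 and 8.74, with an SD of 0.07. CDC5L read 4.52, 4.76, 4.93 and 4.59 by its probe at base 2496, as the probe at base 5793 was at or below 0 on every array. PLRG1 read 4.61, 5.11, 5.49 and 4.88, and its SD of 0.38 was the second highest by detected probes, after that of SNRNP70. Replicate 3 was highest and replicate 1 lowest.

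All 11 SR and SR-like genes were detected, with SDs from 0.07 to 0.34. SRSF5 varied least, at 6.43, 6.43, 6.36 and 6.29. SRSF4 varied most, at 6.08, 6.19, 6.77 and 6.05, a span of 1.64-fold set by replicate 3. SRSF3, the smallest SR protein, read 6.74, 7.06, 7.32 and 6.94. TRA2A read 2.36, 2.71, 3.01 and 2.84, and its paralogue TRA2B read 5.13, 5.24, 5.60 and 5.30. Replicate 1 was lowest and replicate 3 highest in both. SRSF1, the founding member of the family, read 0.45, 0.29, 0.48 and 0.30, with an SD of 0.10. SRSF9 read 6.11, 6.55, 6.36 and 6.26 and was highest on replicate 2.

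SRSF10, whose protein represses splicing when dephosphorylated, read 3.80, 4.05, 3.78 and 3.79, with replicate 2 apart. These values are those of 1 of its 3 detected probes, at base 584, the middle one on each array. The SRSF10 probes at bases 1815 and 2322 were instead highest on replicate 3, with deviations of 0.24 and 0.31. SRSF6 read 3.98, 4.22, 3.84 and 3.90 as a gene. Its probe at base 518 gave signals of 135, 141, 71.8 and 94.3, and its probe at base 3683 gave 10945, 12183, 14153 and 9548. As in PRPF31, replicate 3 was lowest by the one nearer the 5′ end and highest by the other, with deviations of -0.57 and 0.29.

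These pairs led to a comparison of the outermost detected probes of each gene on 1 strand, at least 100 bases apart, a choice made after the PRPF31 and SRSF6 values had been seen. 17 members had such a pair. The log2 ratio of the 3′ over the 5′ probe was highest on replicate 3 in all 17 of them, compared with 60.1% of the 3908 pairs of all genes. It was so in 15 of them after normexp and quantile normalization and in 14 after cyclic loess, where the share over all genes was not taken. The median deviation of the ratio in the members was -0.10, -0.16, 0.31 and -0.02 on replicates 1 to 4, and over all genes it was -0.10, -0.09, 0.19 and -0.01. In the 12 members whose probes were designed on 1 transcript the ratio was highest on replicate 3 in all 12, and over all genes with such pairs in 64.2%. The 17 include PRPF31 and SRSF6, and some are near ties. Replicate 3 read 2.01 in SNRPD1 and 2.00 in TRA2B, against 2.00 and 1.98 on replicate 2. In SF3B3 it read 4.60, against 4.59 on replicate 4. In LSM3, SNRPC and SNRPE 1 probe of the pair was weak, with signals between 28.3 and 70.4. The 5′ probes of SRSF6, SNRNP40 and SF3B3 were also low, with signals between 71.8 and 167.

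The range of the ratio differed widely between members. SRSF6 had the largest deviation on replicate 3, 0.86, followed by PRPF31 with 0.79 and SNRPC with 0.52. In SRSF6 and SNRPC the 5′ probe gave the low signals named above. SNRPD1 had the smallest, 0.03, followed by TRA2B with 0.08. SRSF2, the SC35 protein of nuclear speckles, deviated by 0.42, above the members' median of 0.31. Its probe at base 868 gave 3888, 3743, 3177 and 2828, and its probe at base 2499 gave 10283, 9058, 12111 and 7685. In U2AF1 the probe at base 617 deviated by -0.36 on replicate 3 and the one at base 863 by 0.06. No pair was lowest on replicate 3.

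**Figure D3:**
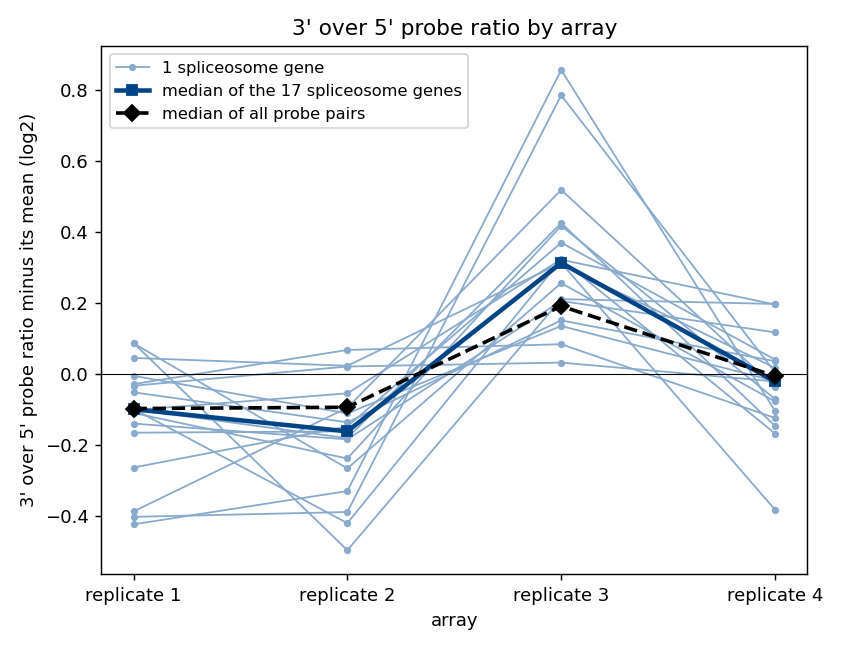
Log2 ratio of the 3′ over the 5′ probe minus its mean over the 4 arrays, for 17 spliceosome genes (thin lines), their median and the median of all 3908 pairs (dashed); lines only join values of the same pair, since replicates have no order. Every member pair peaks on replicate 3, from 0.03 in SNRPD1 to 0.86 in SRSF6.

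Base composition moved with these values as well. In the members' pairs the 3′ probe had a median G and C content of 38.3% and the 5′ probe 45.0%. In 4 members the 3′ probe had an equal or higher content, namely PRPF31, SNRNP40, SNRPC and SNRPD1, and in these the ratio was again highest on replicate 3, compared with 49.1% of the corresponding pairs of all genes. Across the 73 detected member probes, which share the 4 arrays and are not independent, the Spearman correlation of G and C content with the deviation on replicate 3 was -0.49 (n = 73 probes), and it was 0.27, 0.47 and 0.13 on replicates 1, 2 and 4. The part of base composition in the 3′ over 5′ ratio was not tested.

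Of the 5 member probes that dropped most on replicate 3, 4 cross an exon junction. 15 of the 73 detected probes crossed a junction, with genome spans of up to 6443 bases. Of these, 4 lay more than 0.3 below their own mean on replicate 3, in SNRNP70, PRPF31, LSM4 and U2AF1. Among all junction probes of the array 16.8% did so. Of the other 58 member probes 1 did so, the SRSF6 probe at base 518, against 10.4% of such probes of all genes. The remaining 11 junction probes of members did not drop in this way, and those of SNRPG, PRPF3, SNRPE, SNRPF and TRA2A deviated by 0.28 to 0.32 on replicate 3. This split, with a limit set after the values were seen, rests on few probes. The probes that dropped were mostly rich in G and C, at 51.7% in SNRNP70 and PRPF31, 55.0% in LSM4 and 53.3% in SRSF6. The U2AF1 probe had 45.0%. The rising junction probes named above all lay below 45.0%. The junction probes of SNRPA and SF3B2, at 51.7% and 53.3%, did not drop in this way. The part of base composition in this split was not tested.

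As groups, the members differed in how far replicate 3 carried them. The mean deviation of the Sm core over replicates 1 to 4 was -0.01, 0.09, 0.26 and -0.34, with an SD of 0.25 between arrays. With detected probes only it was -0.15, -0.05, 0.23 and -0.04, with an SD of 0.16. For U2 the deviations were -0.15, -0.07, 0.39 and -0.17 (SD 0.26), but with detected probes -0.05, 0.05, 0.05 and -0.05 (SD 0.06). Without SF3B2 the SD of U2 was 0.05, and without SNRPD3 that of the Sm core was 0.15.

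In the other groups the deviations were the same with all and with detected probes. They were -0.06, 0.07, 0.08 and -0.10 for the tri-snRNP (SD 0.09) and -0.12, 0.05, 0.14 and -0.06 for the SR proteins (SD 0.11). The Prp19 complex deviated by -0.22, 0.03, 0.25 and -0.06 (SD 0.20), and U1 by 0.03, 0.11, -0.13 and -0.01 (SD 0.10), with 3 genes each. U1 was the one group with its lowest mean on replicate 3, through SNRNP70. With detected probes, the Sm core and the Prp19 complex stayed highest on replicate 3, and U1 lowest, under each of the 4 other scalings tried (processed signal, normexp with quantile normalization, cyclic loess and the median over all probes). The sizes depended on the scaling. On replicate 3 the Sm core fell to 0.07 after normexp and 0.06 after cyclic loess, and the Prp19 complex to 0.09 after each. U1 read -0.21 and -0.26 there. The tri-snRNP and U2 turned direction on replicate 3, to -0.07 and -0.08 after normexp and -0.06 and -0.09 after cyclic loess. U2 also turned to -0.02 with the processed signal. The SR mean on replicate 3 fell to 0.01 after normexp and after cyclic loess. Over all detected genes the means were -0.02, 0.04, 0.06 and -0.08.

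**Figure D4:**
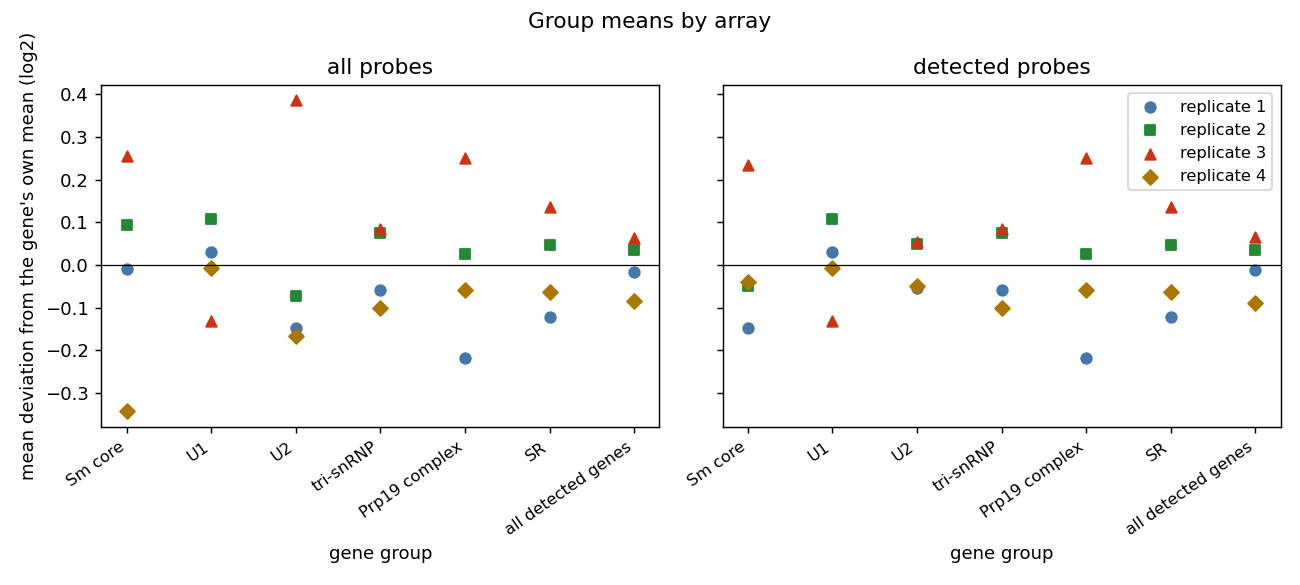
Mean deviation (log2) of the detected genes of each group on each array from the genes' own means, with all probes (left) and with detected probes only (right); symbols are replicates. Replicate 3 of U2 moves from 0.39 to 0.05 and replicate 4 of the Sm core from -0.34 to -0.04 once undetected probes are left out.

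Related gene lists outside the 50 members had median SDs from near that of the members to above that of all detected genes. Of 21 other snRNP proteins 20 were found by name, all were detected, and their median SD was 0.17. The median SD was 0.21 over the 22 spliceosomal helicases and step factors, which were all detected. It was 0.26 over the 13 detected of 14 other SR family proteins and SR kinases. SRSF12 was well above background on no array. The hnRNP proteins often oppose SR proteins at exons. All 19 of them were detected, and the median SD was 0.26. In 4 of these 19 genes 1 array stood apart by Dixon's ratio, against 7.94% of all detected genes. In each of the other related lists the count was 0.

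Markers of cell types were read as detected or not, since levels of different probes are not comparable. All 7 epithelial markers were detected, with summed signals between 428636 and 522136 on the 4 arrays. The sums were 405 to 683 for the 6 fibroblast markers, 272 to 341 for the 6 leukocyte markers and 196 to 314 for the 5 endothelial markers. COL1A1, CD14, CD3E, ITGAM, PTPRC, CDH5 and VWF were detected as well, and COL1A2, COL3A1, PDGFRB, LUM, PECAM1, KDR and TEK on no array. The shares of spots well above background on the arrays were 60.4%, 58.9%, 58.5% and 55.6% for replicates 1 to 4, and no spot was saturated (0 spots).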

How the data were processed

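The files deposited by the authors are the output of Agilent Feature Extraction 10.7.3.1 (version per the submitters' processing notes), with linear background-subtracted intensity values that no step had yet normalized across arrays. Beside quality flags they hold a deposited p-value against background, which was not used, and GRCh37 positions. Per the authors' methods, intensities were log2 transformed and the array median was subtracted. Here control spots and 275 to 410 outlying spots an array were left out, spots of a probe were averaged, signals at or below 0 were dropped on that array, and each gene was given the median of its probes. Detection of a probe needed the flag for well above background on over 50% of its spots. No test between groups was possible with 1 group, so SDs, spans over 1.4-fold and Dixon's ratio describe the spread. The number of arrays limits the precision. The members and lists were chosen with earlier results of these data known. All members may be named, and of the related lists up to 5 genes on no array, plus those that a sentence needs. The alternatives tried were the software's processed signal minus its 75th percentile, normexp (offset 50) with quantile normalization, cyclic loess, other medians, probe, spot and detection rules, and each array left out; added after seeing the data were leaving out spots flagged for their background and leaving out SNRPD3 or SF3B2. Scripts were tested on simulated data and used Python 3.11.15, numpy 2.4.6, pandas 2.3.3, scipy 1.17.1, matplotlib 3.10.9, R 4.3.3 and limma 3.58.1.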

Additional observations from a re-analysis of the deposited data

Results flagged for a closer look

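In 8 of 55 values tested (49 detected genes and 6 group means), the gap of 1 array to the other 3 passed Dixon's limit, which happens by chance in about 1 of 20 and was seen in 7.94% of all detected genes. The 7 genes fell to 1 to 3 under the other scalings, so most of these calls depend on the scaling. On replicate 3 these were SNRPE at 6.46 (others 6.10 to 6.13), SNRPG at 8.45 (others 8.12 to 8.15), EFTUD2 at 7.46 (others 7.13 to 7.16), SF3B2 at 6.95 (others 1.86 to 2.17) and the U2 group mean, which deviated by 0.39 (others -0.17 to -0.07). On replicate 2 they were SNRPA1 at 5.04 (others 4.76 to 4.81) and SRSF10 at 4.05 (others 3.78 to 3.80). The SRSF10 value is that of its probe at base 584, and its other detected probes were highest on replicate 3. On replicate 4 it was SNRPD3 at -0.91 (others 1.76 to 2.27). The values of SF3B2, SNRPD3 and U2 rest on probes near background, as described above, and with detected probes only 5 genes had 1 array apart.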

How the results depend on the processing

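Without a test, a count was taken as moved beyond 1.5-fold and an SD beyond the spread of its values with 1 array left out. All settings tried kept 49 members detected, except the background flags, which removed the single probes of SNRPD2 and LSM7 on 1 array each and left 47. The median SD of 0.17 became 0.10 after normexp with quantile normalization and 0.12 after cyclic loess. After normexp, 7 members spanned over 1.4-fold and 17 were highest on replicate 3, and cyclic loess left 19 highest there. Members with 1 array apart fell from 7 to 1 with the processed signal, 1 with normexp, 3 with cyclic loess and 2 with the median over all probes. The SDs of the group means were 0.0872 (Sm core), 0.14 (U1), 0.0506 (U2), 0.0215 (tri-snRNP) and 0.0736 (SR) with the processed signal. After normexp they were 0.0399, 0.14, 0.0534, 0.0605, 0.0875 and 0.0446 for Sm core, U1, U2, tri-snRNP, Prp19 complex and SR. After cyclic loess they were 0.17 (U1), 0.0537 (tri-snRNP), 0.0986 (Prp19 complex) and 0.0456 (SR). With the median over all probes they were 0.11 (tri-snRNP) and 0.16 (SR), and with background-flagged spots left out 0.14 (tri-snRNP). Detected probes alone gave 0.16 (Sm core) and 0.0595 (U2), probes positive on all arrays 0.0595 (U2), leaving out SNRPD3 0.15 (Sm core) and leaving out SF3B2 0.0545 (U2). With each array left out in turn, the median SD ran from 0.10 to 0.19 (lowest without replicate 3), and the members spanning over 1.4-fold from 2 without replicate 3 to 12, with 7 without replicate 1. The group SDs ran from 0.13 without replicate 4 to 0.31 (Sm core), from 0.0583 without replicate 3 to 0.12 (U1), from 0.0491 without replicate 3 to 0.31 (U2), from 0.0796 to 0.10 (tri-snRNP), from 0.12 without replicate 3 to 0.24 (Prp19 complex) and from 0.0853 to 0.14 (SR). Over members with several detected probes, the median SD of the log2 ratio of the outermost probes was 0.27, and it ran from 0.0962 without replicate 3 to 0.27. The 4 junction probes that dropped on replicate 3 numbered 4 in each setting that holds this array. Of single members, the SD moved beyond 1.5-fold in 32 of 49 with normexp, 29 with cyclic loess, 11 with the processed signal and 8 with the median over all probes. The cause of these moves was not tested. No paired analysis was possible because the untreated samples were not analysed here; the labels tie no treated sample to an untreated one beyond a shared number.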
